A study of Mus musculus with 5 samples.

Results

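Transcripts of the MYC and MAX network were followed in mouse CD8 T cells through 5 genes, which were Myc and Mycn, the agonists of the network, Max, their shared partner, and Mxd4 and Mxi1, the antagonists. All probe sets annotated to these genes were taken, which made 6 of 12422 after removal of the control probe sets, and 5 of 8251 named genes. The genes were chosen by their place in the network and by their signals in both comparisons below, which were already known from these arrays. Their values are therefore a description, and the counts of members called by the test support nothing by themselves.

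CD44-low CD8 T cells were enriched by removing other cells from lymph node preparations of C57BL/6 mice aged 6 to 8 weeks that carried the OT-1 TCR transgene, which makes T cells specific for an ovalbumin peptide. They were cultured on microspheres bearing that peptide on H-2Kb, its MHC molecule, together with B7-1, which engages the costimulatory receptor CD28, and human IL-2 was present in every culture. At 48 h, 2 arrays came from cultures lacking IL-21 and 2 from cultures given murine IL-21, and a single further array came from IL-21 cultures at 72 h. Arrays were labelled as biological replicates without saying whether mice or cultures were separate, so p-values measure only the spread between these samples, which may be technical. No 72 h culture lacking IL-21 was used here. Both groups of the later comparison had IL-21, so whether its differences depend on the cytokine cannot be told. Against the 48 h arrays lacking IL-21, the 72 h array differs in both time and the cytokine.

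MYC and its relatives are transcription factors that work only in pairs. MYC or MYCN joined to MAX binds the E-box CACGTG and raises genes of ribosome assembly, nucleotide and polyamine synthesis and nutrient uptake, whereas MXD proteins joined to MAX occupy the same sites and recruit the SIN3 and histone deacetylase corepressor. In CD8 T cells Myc is induced by antigen and sustained by IL-2 and amino acid supply, and it drives the growth and metabolic change of the first divisions. MXD proteins are best known from cells that leave the cycle or differentiate.

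Values are probe set signals after quantile normalisation and include a small offset, and differences are on the log2 scale with the standard error (SE) of a limma fit to all 5 arrays. Before normalisation the trimmed mean signal lay between 65.3 and 106 over the arrays. The median probe set was higher by 0.57 with IL-21 at 48 h, and lower at 72 h than at 48 h with IL-21 (-0.58). The median deposited signal at 72 h was 20.7, not below the 20.7 and 17.4 of the 48 h arrays lacking IL-21. The 48 h arrays with IL-21 had 31 and 25.4. Directions below are thus relative to the bulk of probe sets. Of the markers of CD8 T cells, 9 of 10 were on the array and all 9 passed the filter on low signal. Their summed signal was 5767 to 6452 at 48 h and 8526 at 72 h, but they moved unequally. Cd8a, a chain of the CD8 coreceptor, lay between 401 and 753, and Cd3e, a chain of the T cell receptor complex, between 1092 and 1650. Cd3g had 1360 at 72 h against 392.9 to 471.4 at 48 h, and Cd3d had 1135 against 414.8 to 444.8. Thy1, Cd3e and Cd8b1 also lay above every 48 h array. Cd8a (505.9) and Cd2 lay within the 48 h range. Cd247 (64.29 against 74.6 to 92.74) and Cd5 (492.7 against 560.5 to 843.9) lay below it. The 3 NK cell markers on the array all lay below the filter. Cd4, the coreceptor of helper T cells, had 9.38 to 15.9 at 48 h and 32.6 at 72 h. The sum of the 5 CD4 and regulatory T cell markers on the array was 155.6 to 323.9 at 48 h and 150.8 at 72 h. Of 9 B cell markers 8 were on the array, and their summed signal was 1238 at 72 h, of which Ighm made up 868 and Cd37 254, against 513 to 779 at 48 h. The B cell genes Cd79a, Cd79b and Ms4a1 reached no more than 34.4 on any array, and Pax5 no more than 39.0. Of these, only Cd79b was highest at 72 h, with 33.64 against 7.056 to 29.83 at 48 h. The part of the shift in the B cell sum in the 72 h results was not tested. The myeloid marker sum lay between 264.5 and 433.4 at 48 h and was 412 at 72 h, but its genes moved both ways. H2-Ab1 had 139.7 at 72 h against 58.05 to 72.1 at 48 h, and Cd68 had 55.38 against 17.82 to 25.34. Csf1r had 15.95 against 18.69 to 37.15, and Cd86 had 8.33 against 12.16 to 16.96. The sum of erythroid, platelet and stromal markers was 238.2 to 321 at 48 h and 355.1 at 72 h.

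**Figure D1:**
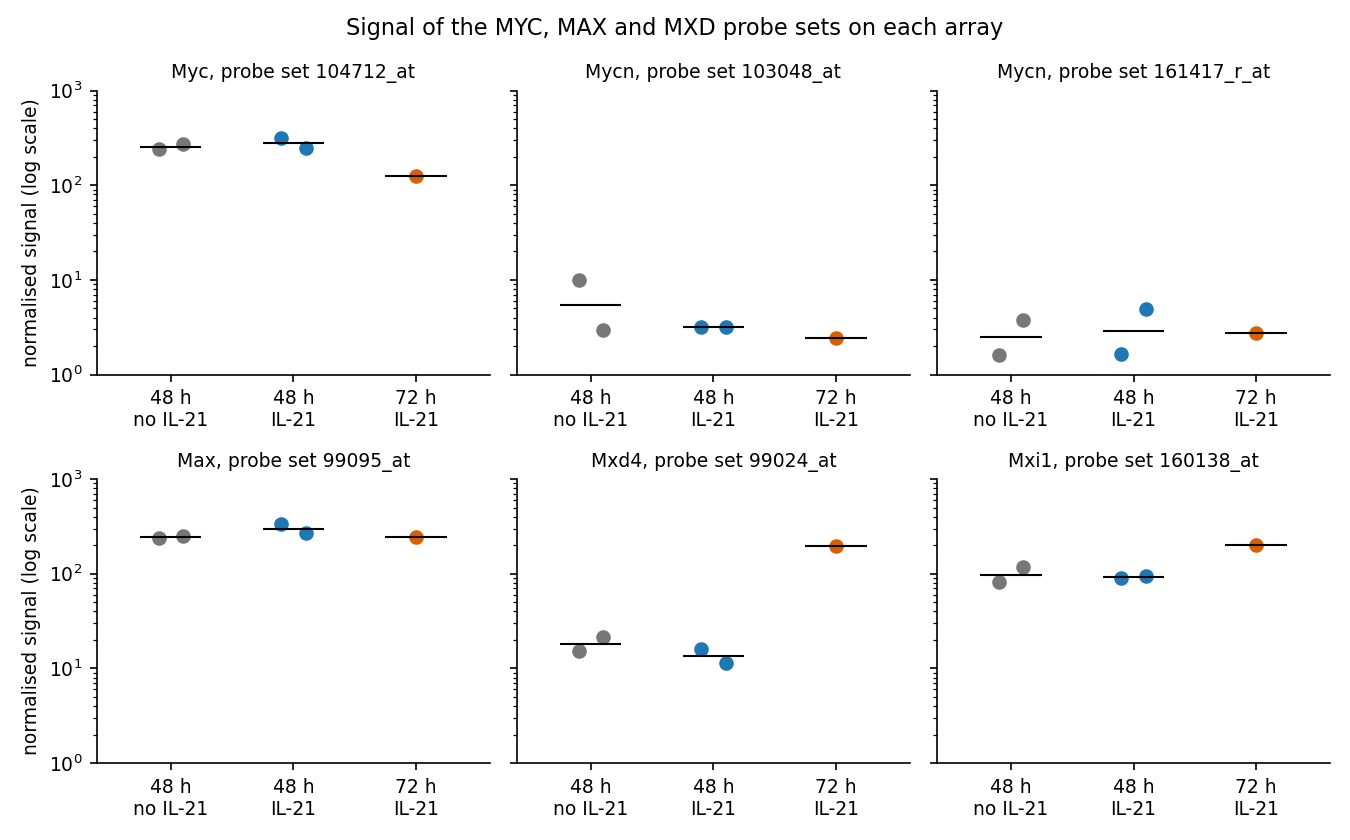
Normalised signal on a log axis of each of the 6 probe sets on each of the 5 arrays. Points are single arrays and horizontal lines are group means of the log2 values. Myc lies lower and Mxd4 and Mxi1 lie higher at 72 h than on any 48 h array, Max lies within the 48 h range, and both Mycn probe sets lie below 10 throughout.

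The comparison at 48 h set cultures given IL-21 beside those lacking it. The members differed little between the groups, and none of the 4 members above the filter was called. Myc had signals of 239 and 275 without IL-21 and 318 and 245 with it. The single arrays of the groups overlapped, and the difference of 0.12 (SE 0.19, 2 arrays a group) was smaller than the gap of 0.41 between the highest and lowest 48 h arrays. Taken against the median probe set it lay between 0.12 and 0.13 under 5 scalings between arrays. No scaling, median centring and scaling on the labelled hybridisation controls differ by a constant per array. They must therefore give the same value against the median, so their agreement shows nothing. After scaling on the hybridisation controls the difference of Myc was -0.07 in itself. Myc is known to respond to mitogenic and cytokine signals, and its transcript and protein are both short-lived. Half-lives were not measured here.

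Max, the constitutive partner, had 241 and 249 without IL-21 and 333 and 266 with it. These were the only member arrays above the filter that did not overlap between the groups, with a difference of 0.28 (SE 0.17). Absence of overlap was seen in 33.8% of all 7453 probe sets tested, so 1 of 4 members is near the background. Mxd4, an antagonist of MYC, had 15.3 and 21.6 without IL-21 and 16.2 and 11.4 with it (-0.42, SE 0.34), and Mxi1, another antagonist, had 81.3 and 116 against 90.7 and 94.9 (-0.07, SE 0.22). Both overlapped between the groups. In the unscaled values these antagonists were higher with IL-21, by 0.10 and 0.52, as was the bulk of probe sets. In limma with Benjamini-Hochberg adjustment 0 of 7453 probe sets (percent called 0) had an adjusted p under 0.05 at 48 h, 327 had an unadjusted p under 0.05, and the 4 members were not among these.

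Mycn, the family member of neural and other progenitors, was near the bottom of the signal range. Its probe set 103048_at had 9.92 and 2.99 without IL-21, 3.21 and 3.20 with it and 2.44 at 72 h. Its other probe set, 161417_r_at, had 1.62 and 3.77 without IL-21, 1.67 and 4.97 with it and 2.75 at 72 h. Both lay below the filter, which stood at a mean signal of 13, and were not tested. In the deposited values they lay between the 0.0765th and the 33.8th percentile of their array. The probe sets differed in which 48 h array was highest, and differences at this signal have no useful direction.

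The comparison over time set the single 72 h array beside the 2 arrays from IL-21 cultures at 48 h. The 72 h value is unreplicated, and the test takes that array to vary like the others. Myc was lower and both antagonists had higher signals at 72 h. Max had the smallest difference of the 4 members after normalisation (-0.30), but not in the unscaled values, where it differed by -1.05 (limma adjusted p = 0.0134, called) and Mxi1 by 0.39. In bulk RNA, fewer cells with a transcript and less of it per cell cannot be told apart. Of the 4 members above the filter 2 were called in limma, Mxd4 higher and Myc lower, beside 11.2% of all probe sets called (4.04% higher and 7.12% lower). The choice of the genes used this comparison, so nothing is read from that count. Both comparisons use the same 48 h arrays with IL-21, so their differences are not independent.

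Myc had 124 at 72 h, below every 48 h array, of which the lowest had 239. Against the 48 h arrays with IL-21 the signal was 2.25-fold lower (-1.17, SE 0.23). Against the single 48 h arrays the differences were -1.36 and -0.98 with IL-21 and -0.94 and -1.15 without it, each larger than the range of 0.41 among 48 h arrays. In the deposited values, without any scaling, Myc went from between the 88.6th and the 91.7th percentile of the array at 48 h to the 79.1st percentile at 72 h. It therefore remained among the brighter probe sets at 72 h. Its difference ranked 447th from the lowest of 7453.

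Mxd4 showed the reverse, and by more. Its signal was 195 at 72 h against 11.4 to 21.6 at 48 h, a 14.4-fold difference from the 48 h arrays with IL-21 (3.85, SE 0.41). Against the single 48 h arrays the difference lay between 3.18 and 4.10, and it ranked 8th from the highest of 7453. In the deposited values it moved from between the 36.4th and the 48.1st percentile to the 86.0th. The 48 h signals are close to the filter, so the size of the fold depends on the dim 48 h values and on the offset, and it was 2.89 on the log2 scale with an offset of 16.

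Mxi1 had 201 at 72 h against 81.3 to 116 at 48 h, and no 48 h array reached the 72 h value. The difference from the 48 h arrays with IL-21 was 1.12 (SE 0.27, 2.17-fold), between 0.79 and 1.31 against the single arrays. Its adjusted p of 0.0544 in limma missed the threshold, so it is not counted as called. Without scaling the difference was 0.39 (adjusted p = 0.351 in limma). Max had 243 at 72 h, inside the 48 h range of 241 to 333, and differed by -0.30 (SE 0.21) from the arrays with IL-21 and by 0.01 and -0.04 from those without it. Without the first or the second array with IL-21 the difference of Max was -0.13 or -0.45. Its deposited signal at 72 h, 186.6, lay below the 200.8 to 427 of the 48 h arrays, which differ in brightness. As a percentile of the array that deposited signal stood at 88.76, inside the 88.68 to 92.16 of the 48 h arrays. A 72 h value outside the range of all 4 arrays at 48 h was found for Myc, Mxd4 and Mxi1 among the 4 members above the filter, and for 64.2% of all probe sets.

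Apart from the effect of the offset, ratios of agonist to antagonist within an array do not depend on a constant scaling of that array. On the 72 h array the log2 ratio of Myc to Mxd4 was lower than on each 48 h array by values between -5.08 and -4.32 after normalisation. Without scaling, and with the same offset added, it was lower by values between -5.29 and -4.31. The ratio of Myc to Mxi1 was lower by values between -2.51 and -1.94, and that of Myc to Max between -1.11 and -0.85. Among the 48 h arrays these ratios spanned 0.76, 0.57 and 0.26. They show unequal change within the network and not the change of any transcript alone.

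**Figure D2:**
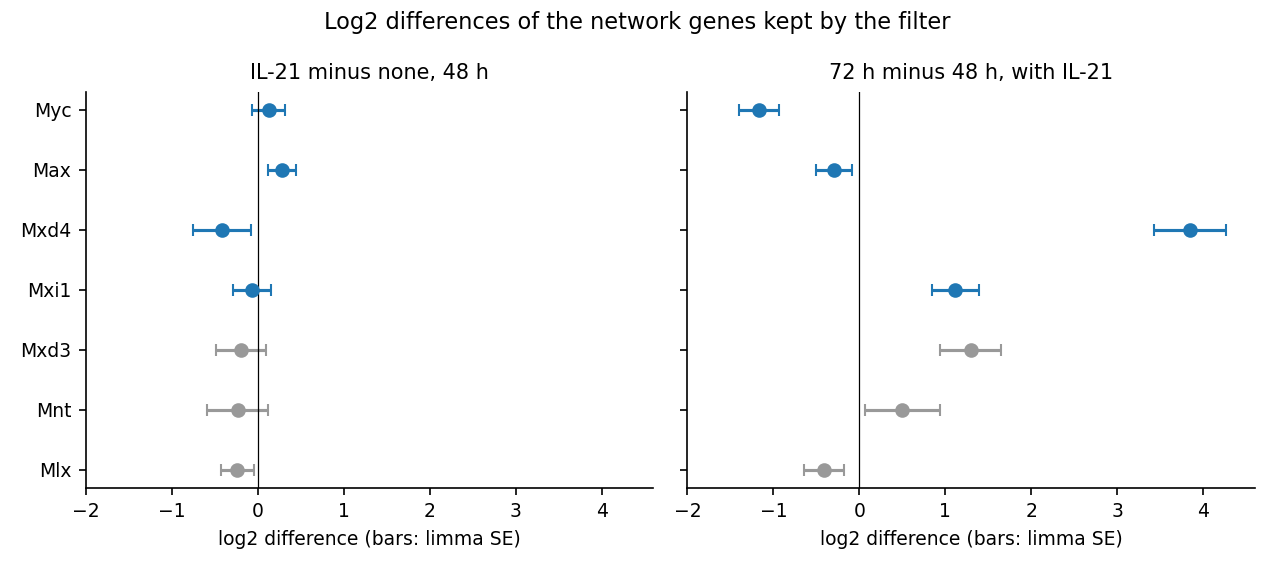
Log2 differences with limma standard errors of the members (blue) and the other network genes (grey) above the filter, for IL-21 against none at 48 h (left) and 72 h against 48 h with IL-21 (right). At 48 h the values lie between -0.42 and 0.28. At 72 h Mxd4 stands apart at 3.85, Mxi1 and Mxd3 lie at 1.12 and 1.30, and Myc at -1.17.

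**Figure D3:**
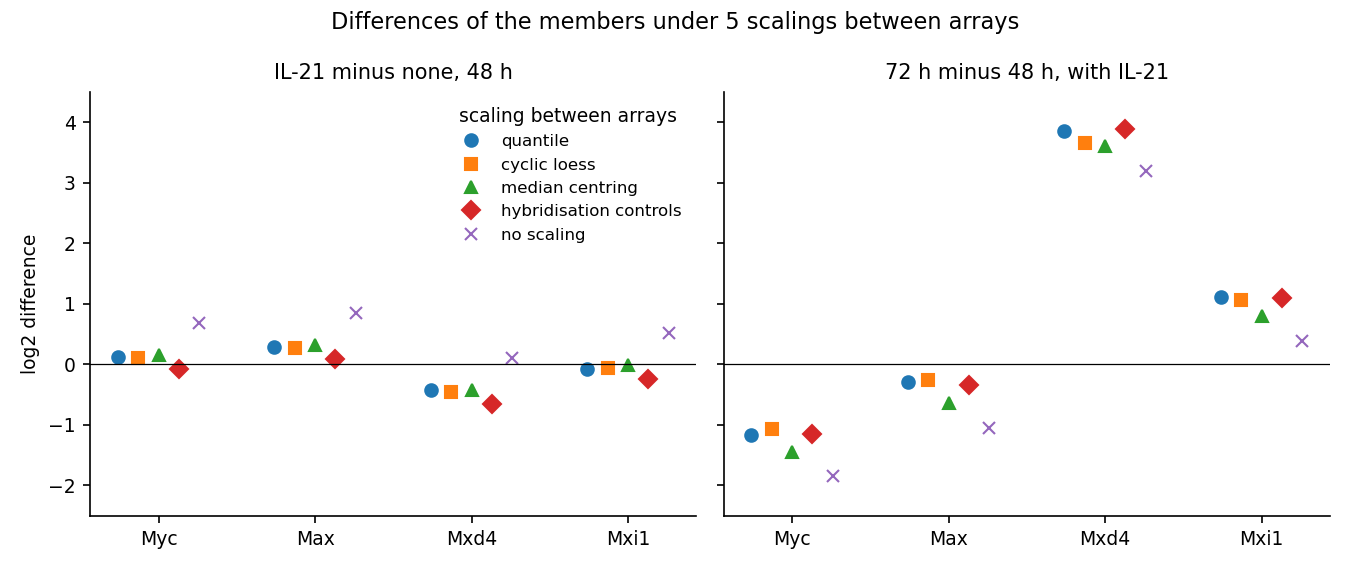
Log2 differences of Myc, Max, Mxd4 and Mxi1 under 5 ways of scaling the arrays to each other, at 48 h (left) and at 72 h (right). At 48 h the sign of Myc, Mxd4 and Mxi1 depends on the scaling. At 72 h Myc and Max are below 0 and Mxd4 and Mxi1 above 0 under all 5, with the values for no scaling lowest in each.

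At 72 h the signs of the 4 members were the same under all 5 scalings. Against the median probe set, Myc lay between -1.27 and -1.09, Max between -0.46 and -0.28, Mxd4 between 3.62 and 3.86 and Mxi1 between 0.97 and 1.13. Here too, no scaling, median centring and scaling on the hybridisation controls must give the same value against the median. The call of Myc was lost when any 1 of the 4 arrays at 48 h was left out, with differences between -1.35 and -0.98. That of Mxd4 was lost without either 48 h array with IL-21, with differences of 4.12 and 3.54, and in those limma fits no probe set was called, with 1703 and 1748 at an unadjusted p under 0.05.

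Besides the members, 5 other genes of the network were on the array, of 9 listed, and 3 passed the filter. Mxd3, an MXD antagonist tied to proliferating cells, had 50.03 and 58.6 without IL-21, 37.0 and 60.4 with it and 116 at 72 h. The 72 h value lay above every 48 h array, but the difference of 1.30 (SE 0.35) did not pass in limma (adjusted p = 0.0708). Mnt, a MAX-binding repressor expressed in most cells, had 37.2 and 75.7 with IL-21 at 48 h and 75.1 at 72 h (0.50, SE 0.43). Mlx, the partner of the glucose-sensing MLXIP proteins, had 142 and 183 against 121 (-0.41, SE 0.23). Neither passed. Mycl and Mxd1 lay below the filter, with single arrays between 5.22 and 19.1 and between 3.47 and 8.44. At 48 h the 3 genes above the filter differed by values between -0.24 and -0.20, and none was called.

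Promoter sequence was read for the network because its members bind the E-box and act on one another. RefSeq windows running from 250 bases before to 50 after a start site (GRCm38.p6) were given for 4 of the 5 members, Myc being the exception, in 6 windows. The E-box CACGTG was searched on both strands, as were the FOXO motif GTAAACA, FOXO factors being known to act on Mxi1, and the STAT motif TTCNNNGAA, STAT factors being activated by IL-21 and IL-2. CACGTG was in 2 of the 6 windows, those of Mxd4 and Max. It was in 7.15% of all 32851 windows and in 10.3% of those of genes above the filter. GTAAACA was in 1 Mxi1 window, in 3.65% of all and in 2.53% of those above the filter. TTCNNNGAA was in none of the 6, in 8.30% of all and in 6.78% of those above the filter. The promoter of Mxd4, the member with the largest difference, is shown over the 250 bases before its start (chr5:34187711-34187960, minus strand), with the E-box, which begins 219 bases before the start, in capitals.
Mxd4: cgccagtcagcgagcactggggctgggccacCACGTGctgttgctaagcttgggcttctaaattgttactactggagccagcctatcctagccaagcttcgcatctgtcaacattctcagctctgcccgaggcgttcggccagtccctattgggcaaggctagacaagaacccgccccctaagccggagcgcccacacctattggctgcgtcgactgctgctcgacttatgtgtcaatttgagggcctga

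The other matches in members and network genes above the filter are shown with 10 bases on each side and the motif in capitals, so that their flanks can be compared. They lie at chr12:76962236-76962261 (minus strand, 3 bases before the start) for Max, chr11:74830791-74830816 (plus, 123 before) for Mnt, chr11:101087240-101087265 (plus, 40 before) for Mlx and chr19:53329454-53329480 (plus, 231 before) for the FOXO motif of Mxi1.
Max: tgagcccggtCACGTGttagggggcc
Mnt: ccacccaagcCACGTGtgcgcgcgcg
Mlx: tgggttggatCACGTGactgagcctc
Mxi1: gcgcggagaaGTAAACAaaccgcgcgc
A match is a string of letters and not a measured site. Genes with an E-box window included Mxd4, which was higher at 72 h, and Max, which lay within the 48 h range.

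More of the genes known to be raised by MYC were called lower at 72 h than higher, with shares called that ranged from 25% in the cell cycle list to 87% in the nucleolar list. The lists overlap one already examined on these arrays, so they are not independent evidence of a direction. Of 79 genes above the filter in 5 target lists, 45 (57.0%) were called lower and 0 higher in limma, 34 were not called, and 74 had a negative difference. Among all 5610 genes 7.59% were called lower and 4.28% higher, and the median difference was -0.01 against -0.94 for the targets. No target was called when either 48 h array with IL-21 was left out, since no probe set was. At 48 h, none of the 79 was called and the median was 0.02.

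The nucleolar targets, which build ribosomes, held the largest share. Of 23 genes 20 were called lower, with a median of -1.58. Gnl3, which encodes nucleostemin, had 185 to 259 on the 48 h arrays and 35.8 at 72 h (-2.81, SE 0.20), and Ppan, a factor of large subunit assembly, had 143 to 171 and 28.1 (-2.41, SE 0.23). Nop2, an rRNA methyltransferase, differed by -2.01 (SE 0.17) and Fbl, the methyltransferase fibrillarin, by -1.43 (SE 0.13). Nop2 carries an E-box 60 bases before its start, shown with the motif in capitals (chr6:125131813-125131838, plus strand).
Nop2: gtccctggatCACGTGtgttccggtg
An E-box was in 3 of 20 windows of the nucleolar list (15%), in 26.1% of those of translation, chaperones and RNA processing, and in 9.09% to 11.1% of those of each of the other 3 target lists and of the genes repressed by MYC, beside 10.3% of the 5854 windows of all genes above the filter. Ddx21, a nucleolar helicase, was the gene of this list with the smallest p at 48 h, where it had 226 and 206 without IL-21 and 347 and 396 with it (0.78, SE 0.16). It did not pass there (limma adjusted p = 0.88) and fell to 124 at 72 h.

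In the list of polyamine, nucleotide and one-carbon enzymes 8 of 15 were called lower, with a median of -0.95. Srm, which makes spermidine, went from 660 to 814 at 48 h to 87.7 at 72 h. Shmt1, a serine hydroxymethyltransferase, differed by -2.06 (SE 0.19, another probe set below the filter -0.35). Ctps, which makes CTP, differed by -1.60 (SE 0.16) and Gart, an enzyme of purine synthesis, by -1.56 (SE 0.19). Prps1, which makes the ribose precursor of nucleotides, was called too (-0.95, SE 0.20), and Nme2, a nucleoside diphosphate kinase, was not (-0.41, SE 0.12). At 48 h these last genes differed by 0.30 and -0.25. Of 19 genes of translation, chaperones and RNA processing 11 were called lower, with a median of -0.88, but 5 after scaling on the hybridisation controls and 7 without the second array lacking IL-21. They included Apex1, a DNA repair and redox protein (-1.61, SE 0.22), and Ranbp1, which acts in nuclear transport (-1.27, SE 0.18). Also among them were Hnrnpab (-1.21, another probe set -3.11) and the splicing factor gene Srsf2 (-0.94, another probe set -0.64 and not called). Cct2, a chaperonin subunit, differed by 0.89 (SE 0.23) at 48 h, not called, and by -0.16 (SE 0.28) at 72 h.

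In the list of glycolysis and nutrient transport the median was -0.15. Of its 10 genes 3 were called lower (30%), but 1 after scaling on the hybridisation controls. The 3 were the amino acid transporters Slc7a5 (-1.54, SE 0.16) and Slc1a5 (-1.07, SE 0.18) and the transferrin receptor gene Tfrc (-0.82, SE 0.14, another probe set -0.76 and not called), not glycolytic enzymes. The glycolytic enzyme gene Tpi1 differed by -0.08 (SE 0.10), and the transporter subunit gene Slc3a2 by -0.90 (SE 0.31), neither called. Of 12 cell cycle targets 3 were called lower (25%, beside 7.59% of all genes), but 1 with cyclic loess, with scaling on the hybridisation controls, with no filter or without either array lacking IL-21, and 10 without scaling. They were Cdca7 (-1.25), Cdc25a, a phosphatase that activates cyclin-dependent kinases (-1.08, another probe set below the filter 0.04), and the replicative helicase subunit gene Mcm5 (-0.81, another probe set below the filter -0.06). Cdk4, a kinase of the G1 phase, differed by -0.52 (SE 0.13) without passing, and its other probe set by less than 0.01. Ccnd2, cyclin D2, differed by 0.72 (SE 0.27) at 48 h and -0.78 (SE 0.33) at 72 h and Cks2, a kinase subunit, by -0.18 (SE 0.11) and -0.33 (SE 0.14), none of them called.

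In the list of genes known to be repressed when MYC is high, all 8 above the filter had a positive difference at 72 h, with a median of 0.61, and 3 were called higher (37.5%, beside 4.28% of all genes). The median was 1.02 without the second 48 h array with IL-21 and 0.12 without scaling. Ndrg1, a stress and differentiation gene, had 134 to 237 at 48 h and 758 at 72 h (2.33, SE 0.23), and Ccng2, a cyclin of cells leaving the cycle, had 138 to 279 and 537 (1.84, SE 0.22). Txnip, an inhibitor of thioredoxin and glucose uptake, had 71.1 to 99.4 and 200 (1.25, SE 0.27), but its other probe set gave -0.26. Cdkn1a, the cell cycle inhibitor p21, differed by 0.22 (SE 0.24) and Klf6, a zinc finger factor, by 0.36 (SE 0.20). At 48 h none was called, and the median of -0.13 was -0.28 without the first array lacking IL-21, -0.31 without the second array with IL-21, 0.40 without scaling and 0.06 with no filter, so it has no settled direction. The gene with the smallest p there was Cdkn1a (-0.84, SE 0.19), followed by Ccng2 (-0.76, SE 0.18).

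**Figure D4:**
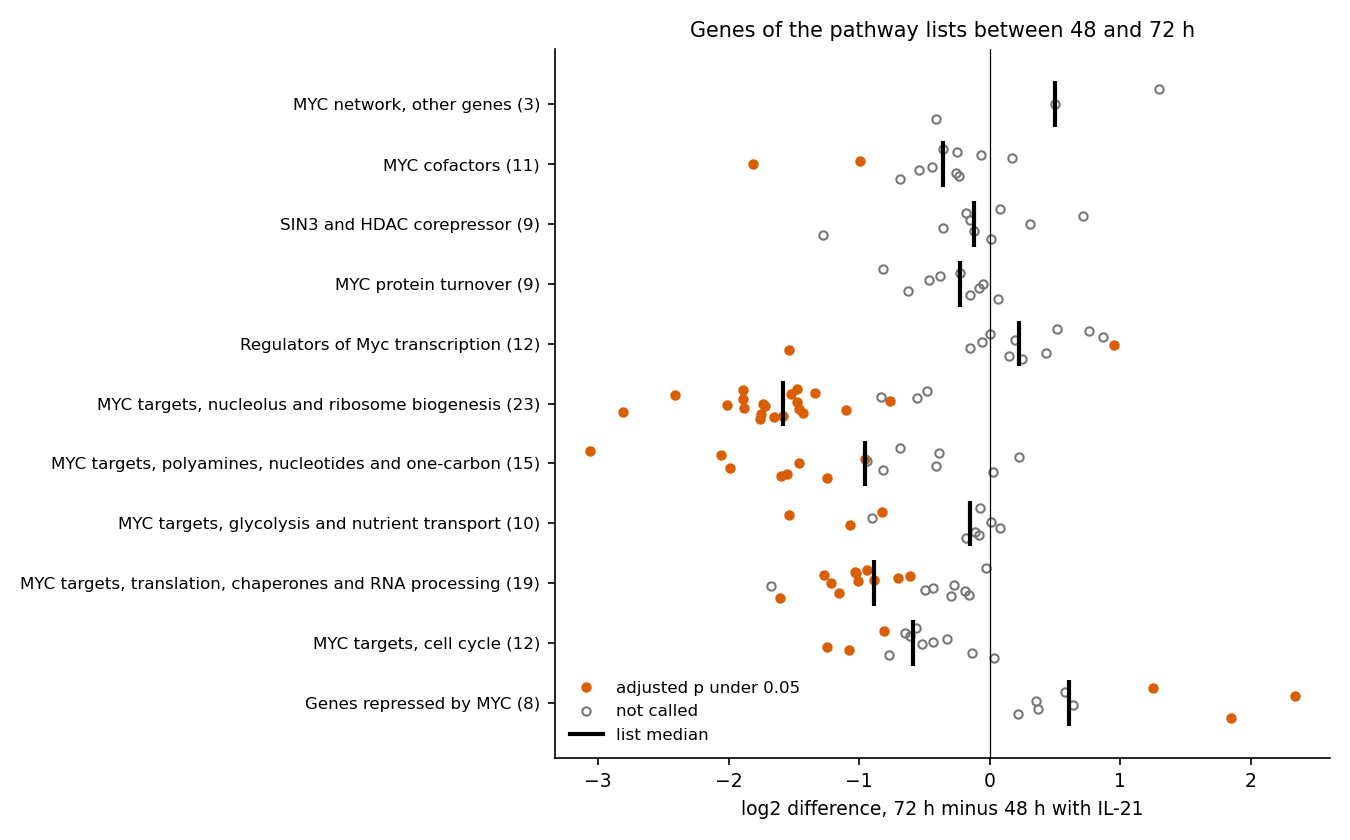
Log2 difference between 72 h and 48 h with IL-21 of each gene above the filter in the 11 lists, with the number of genes in brackets. Filled points passed the limma test, open points did not, and bars are list medians. The nucleolar targets centre at -1.58 with 20 of 23 called, and the genes repressed by MYC lie at 0.22 to 2.33.

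Transcripts of proteins that work with MYC and MXD at chromatin came next. Of 11 MYC cofactors 2 were called lower (18.2%, beside 7.59% of all genes), Ruvbl1 (480 and 452.5 with IL-21 at 48 h to 133, -1.81, SE 0.19, another probe set -0.55 and not called) and Ruvbl2 (-0.99, SE 0.15), which form the helicase pair of chromatin remodelling complexes. Zbtb17, which encodes MIZ1, the partner through which MYC represses, had 25.1 and 28.1 without IL-21 and 67.3 and 52.5 with it at 48 h. That difference of 1.16 (SE 0.25) did not pass (limma adjusted p = 0.967). Actl6a, an actin-related subunit of such complexes, differed by -0.69 (SE 0.19) at 72 h, the cofactor gene Hcfc1 by -0.54 (SE 0.16), and the acetyltransferase gene Kat2a by 0.51 (SE 0.24) at 48 h, none called. None of 9 corepressor genes was called at either time. Sin3b, a scaffold that MXD proteins bind, had 278 and 305 with IL-21 at 48 h and 478 at 72 h (0.72, SE 0.17), while its other probe set gave -1.05, and Hdac2, a deacetylase, had 227 and 354 and then 117 (-1.28, SE 0.35). The corepressor subunit genes Rbbp7 and Sap30 differed by -0.36 and 0.31 at 72 h. At 48 h Rbbp4 and Suds3 differed by -0.19 each, but another probe set of Suds3 gave 0.16.

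Of 9 genes that set the stability of MYC protein none was called. Stub1, a ubiquitin ligase, differed by -0.82 (SE 0.23) at 72 h, and the kinase gene Aurka by 0.86 (SE 0.17) at 48 h. Cul1, a ligase scaffold, differed by -0.63 at 72 h and the ligase gene Huwe1 by -0.47. The kinase gene Pim1 differed by 0.26 at 48 h and -0.38 at 72 h (another probe set 0.10 and -0.02). Among 12 regulators of Myc transcription 1 was called lower and 1 higher at 72 h (8.33% each, near the 7.59% and 4.28% of all genes). Fubp1, which binds a far upstream element of Myc and activates it, fell from 296 and 334 to 108.5 (-1.54, SE 0.19, other probe sets -1.003 and -0.32 and not called), and Lef1, a factor of WNT signalling and of naive and memory T cells, had 458 and 580 and then 999.8 (0.96, SE 0.19, called, another probe set 0.87 and not called). The call of Lef1 was lost with median centring, with scaling on the hybridisation controls, without scaling, without the variance trend and with any 1 of the 48 h arrays left out. Stat3, which carries the IL-21 signal, differed by 0.87 (SE 0.25, another probe set 0.49). The zinc finger factor gene Yy1 differed by 0.52 (SE 0.20, another probe set 0.08), and neither gene was called. At 48 h Ctnnb1, which encodes beta-catenin, differed by 0.48 (SE 0.15) and the receptor gene Notch1 by 0.39 (SE 0.20, another probe set 0.04), neither called. The list median of 0.22 turned to -0.06 with arrays centred on their medians and to -0.47 without scaling.

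The genes with the pattern most like Myc over the 5 arrays, by the root mean square distance of centred log2 values, were Tnpo1, a nuclear import receptor (0.0748), Rab7 (0.0835), Nudcd2 (0.0847), Wdr43, a nucleolar protein (0.0872), Psmd11, a proteasome subunit (0.0906), and Uchl5 (0.0912). Their differences at 72 h lay between -1.27 and -1.02. Nearest to Mxd4 were Aldoc, a glycolytic aldolase (0.232), Prr5 (0.25), Tmem71 (0.353), Pglyrp1 (0.4), Dnm1 (0.504) and Selenbp1 (0.509). These distances are several times larger, and the differences of the 6 genes at 72 h lay between 2.6 and 4.51. With 5 arrays, such likeness rests largely on the lone 72 h array.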

How the data were processed

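Affymetrix arrays were used, 1 per sample. The authors made the deposited intensity of each probe set, on a linear scale, with MAS5 per the submitters' processing notes. Neither a version nor a scaling target was at hand, and detection calls were not used. The columns share no common level. Gene names came from the platform annotation, updated to GRCm38.p6 symbols by Entrez identifier (10833 of 12422 probe sets had 1 name, and 396 entries with several were left unnamed). An offset of 1.53, the 10th percentile, was added before log2, which understates differences of dim probe sets. Arrays were quantile-normalised, and probe sets with a mean above the 40th percentile (7453, for 5610 genes) entered a fit of 3 group means by limma 3.58.1 (R 4.3.3), which left 2 residual degrees of freedom, with a variance trend, two-sided tests and Benjamini-Hochberg adjustment at 0.05. The number of arrays limits the precision. A gene in a list is its probe set with the highest mean. The members and the 11 lists were chosen with earlier results of these data known. Named genes are the network, then per list up to 4 by smallest p at 72 h and 2 at 48 h, and the 6 most like Myc and Mxd4. Sequences are RefSeq windows. Alternatives were the offset, scaling, filter, variance trend, replicate block, probe set rule and each 48 h array left out.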

Additional observations from a re-analysis of the deposited data

How the results depend on the processing

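At 48 h the 0 calls became 696 without scaling, 1 of them a member (Max), and 11 with the replicate number as a block, none of them a member. At 72 h the 832 calls became 2128 without scaling, 1860 with the replicate block and 0 without the variance trend, where 1843 probe sets had an unadjusted p under 0.05 in limma. Leaving out each 48 h array in turn gave 0 to 465 calls, 0 of them without either array with IL-21 (1703 and 1748 at an unadjusted p under 0.05), 465 without the first and 432 without the second array lacking IL-21. Of the members, 2 were called at 72 h, 3 without scaling, where Max was called lower (-1.05, adjusted p = 0.0134 in limma), 0 without the variance trend and 0 to 1 with an array left out. Higher and lower calls at 72 h were 301 and 531, but 330 and 444 with cyclic loess, 122 and 552 with median centring, 320 and 326 after scaling on the hybridisation controls and 101 and 2027 without scaling, where the median probe set stood at 0.02, -0.17, 0.12 and -0.58. At 48 h the difference of Myc was -0.0703 after scaling on the controls and lay between -0.0658 and 0.31 with an array left out, that of Mxi1 was 0.52 without scaling and between -0.32 and 0.19, and that of Mxd4 was 0.10 without scaling. Signs of the 4 tested members at 72 h held under every alternative run. Mxi1 was called with an offset of 16 (adjusted p = 0.0483 in limma), a filter at the 60th percentile (0.0435), which removes Mxd4, the replicate block (0.00526) and, chosen after the data were seen, the 72 h array against all 4 arrays at 48 h (0.0215), but its adjusted p was 0.351 without scaling (0.39), 0.169 with median centring (0.80), 0.108 without the variance trend and 0.17 and 0.149 without either array with IL-21. Same-numbered arrays deviated together (r = 0.361 across probe sets), but no label ties the numbers to a day or mouse.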

Other observations

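Genes whose products bind MYC but stand outside the network were chosen after their values were seen. Mycbp2, a large ubiquitin ligase, had 119 and 117 without IL-21, 117 and 98.6 with it and 132 at 72 h, and was not called in either comparison. Mycbp lay below the filter, with 2.24 to 4.15 at 48 h and 6.88 at 72 h.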
